A study of Homo sapiens with 6 samples.

Results

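The S100 genes encode small calcium-binding proteins, and 10 of them were followed across 3 human bladder cancer (BC) cell lines with or without quisinostat: S100A2, S100A4, S100A6, S100A8, S100A9, S100A10, S100A11, S100A13, S100A16 and S100P. These genes were taken by name from the deposited table. All 10 were found, each as an assembled locus of its own with a single name, among 9597 distinct gene names at 10066 loci. RT4 and RT112 cells carry an FGFR3-TACC3 fusion and SW780 cells an FGFR3-BAIBP2L1 fusion, as the labels spell it. Quisinostat, an inhibitor of histone deacetylases (HDACs), was given for 2 days at 50 nM to RT4, 10 nM to RT112 and 25 nM to SW780 cells, and DMSO, its solvent, was the control. RT4 cells were grown in McCoy's 5A medium and the other lines in DMEM, so line, dose and medium cannot be told apart. Each line and treatment gave 1 library of polyadenylated RNA, 6 in all, and a difference within a line therefore has no replicate check.

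S100 proteins are built from a pair of EF-hands, the helix-loop-helix fold that holds a calcium ion, and most of them work as dimers. On binding calcium most expose a surface that docks onto partners such as annexins, cytoskeletal proteins and receptors. Most family genes lie together on the long arm of chromosome 1, next to the epidermal differentiation complex that holds genes of the cornified cell envelope, and several are abundant in lining epithelia. S100P lies apart, on chromosome 4.

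In GENCODE 29 on GRCh38, the build named in the submitters' processing notes, the 9 members of chromosome 1 lie between 151982915 and 153631360, a span of 1.65 Mb. S100A10 and S100A11 stand at its low end. The low end of S100A9 lies 1375 kb from that of S100A10, and the low end of S100A8 1407 kb. S100A6, S100A4, S100A2, S100A16 and S100A13 lie between 1552 and 1636 kb. S100A9 is on the plus strand and the other members of chromosome 1 are on the minus strand. S100P lies on chromosome 4 from 6693069 to 6697170, on the plus strand. All 10 genes are protein-coding. S100A4 overlaps S100A3 on the same strand, S100A13 overlaps S100A1 on the opposite strand, and S100A6 and S100A11 each overlap an annotated antisense RNA. Whether reads were assigned by strand is not stated, so the values of these 4 genes may hold reads of their partners. GENCODE 29 also lists 2 pseudogenes named after S100A11, and reads of such copies may be shared.

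Upstream sequences are shown for the genes whose log2 ratio of quisinostat over DMSO was past 0.3 in 1 direction in every line, and for S100A9, which was highest in RT112 cells. S100P and S100A4 were lower with quisinostat in each line by that limit, and S100A10 was higher. Each sequence holds the 250 bases before the RefSeq start of the gene (GRCh38.p14), written 5′ to 3′ on the gene's own strand. The windows are chr4:6693628-6693877 (plus strand), chr1:153545807-153546056 (minus strand), chr1:151993860-151994109 (minus strand) and chr1:153357604-153357853 (plus strand). Capitals mark every match, on either strand, to 4 motifs: TATAAA (the TATA box), GGGCGG (the GC box), TGANTCA (the AP-1 element) and CCAAT.
S100P: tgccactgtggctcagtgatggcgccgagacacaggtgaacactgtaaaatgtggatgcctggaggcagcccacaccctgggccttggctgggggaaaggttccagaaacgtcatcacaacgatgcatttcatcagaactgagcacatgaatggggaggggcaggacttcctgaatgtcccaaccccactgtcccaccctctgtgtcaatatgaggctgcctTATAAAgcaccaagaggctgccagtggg
S100A4: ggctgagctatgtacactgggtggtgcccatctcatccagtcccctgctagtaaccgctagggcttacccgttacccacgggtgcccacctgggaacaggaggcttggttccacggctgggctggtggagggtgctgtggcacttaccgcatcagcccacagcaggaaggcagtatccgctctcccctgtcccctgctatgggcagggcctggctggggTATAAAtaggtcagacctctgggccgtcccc
S100A10: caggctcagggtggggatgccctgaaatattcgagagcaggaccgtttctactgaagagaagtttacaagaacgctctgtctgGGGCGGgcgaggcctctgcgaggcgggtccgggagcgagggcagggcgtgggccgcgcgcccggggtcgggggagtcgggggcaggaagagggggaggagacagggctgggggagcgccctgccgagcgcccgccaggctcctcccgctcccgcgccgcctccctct
S100A9: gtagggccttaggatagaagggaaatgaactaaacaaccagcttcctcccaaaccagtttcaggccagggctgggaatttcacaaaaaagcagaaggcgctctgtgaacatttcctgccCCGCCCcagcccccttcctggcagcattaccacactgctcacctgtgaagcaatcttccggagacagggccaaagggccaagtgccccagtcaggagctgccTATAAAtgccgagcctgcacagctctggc
TATAAA stood 28 bases before the start of S100P, 31 before S100A4 and 29 before S100A9, and it was not found in the window of S100A10. It was found in 10.7% of 35114 such windows over all RefSeq starts. GGGCGG occurred once in the S100A10 window and, in reverse, once in that of S100A9, as in 42.6% of all windows. The S100A10 window had a GC content of 71.2% and 24 CpG pairs, the other 3 windows between 55.6% and 62.8% and between 4 and 7 pairs. The medians over all windows were 58.0% and 11 pairs. Transcripts that start further upstream are annotated in GENCODE 29 for S100P, S100A4 and S100A10, so these 3 windows lie inside the gene bounds given above. These matches describe letters and were not tested as sites.

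Expression was given as FPKM (fragments normalized to transcript length and library size), a unit per length in which levels of different genes can be compared. Library medians ran from 6.59 to 7.39 FPKM, and 213 to 534 loci per library were listed at 0. Of 20 epithelial and urothelial markers all 20 were in the table, and their FPKM summed to between 1110 and 2602 per library. Of 12 leukocyte and myeloid markers 0 were in the table, and of 10 fibroblast and endothelial markers 3 were. The sum of these 3 reached 135 FPKM in RT112 DMSO, nearly all of it LUM. How rows of the table were selected is not stated, so a missing name does not show that a gene was silent. Of 5 genes that HDAC inhibitors are known to raise, GSN alone was higher past 0.3 in each line, where 11.4% of all loci were. The other 4 (CDKN1A, H1F0, CLU and TUBB3) were not. The log2 ratios of GSN for RT4, RT112 and SW780 cells were 0.93, 2.79 and 1.50, the last at FPKM below 0.4. Ratios of quisinostat over DMSO followed the GC content of transcripts across genes, with Spearman correlations of -0.49, 0.43 and -0.22 in that order, so GC-corrected values are given for the genes named below that they move across 0.3.

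The abundance of the S100 genes ranged widely, with S100A11, S100A6 and S100A2 among the first 99 of 10066 loci in every library, and S100A8 at place 4205 or later. Summed over the 10 genes, the DMSO libraries of RT4, RT112 and SW780 cells had 3453, 3751 and 2809 FPKM, and the quisinostat libraries 2249, 3143 and 3715. S100A11 and S100A6 together made between 53.0% and 66.0% of this sum in every library. S100A11, known from keratinocytes as a growth regulator that binds annexin A1, stood between place 13 and 24 of all loci in each library. S100A6, also called calcyclin, stood between place 17 and 34.

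**Figure D1:**
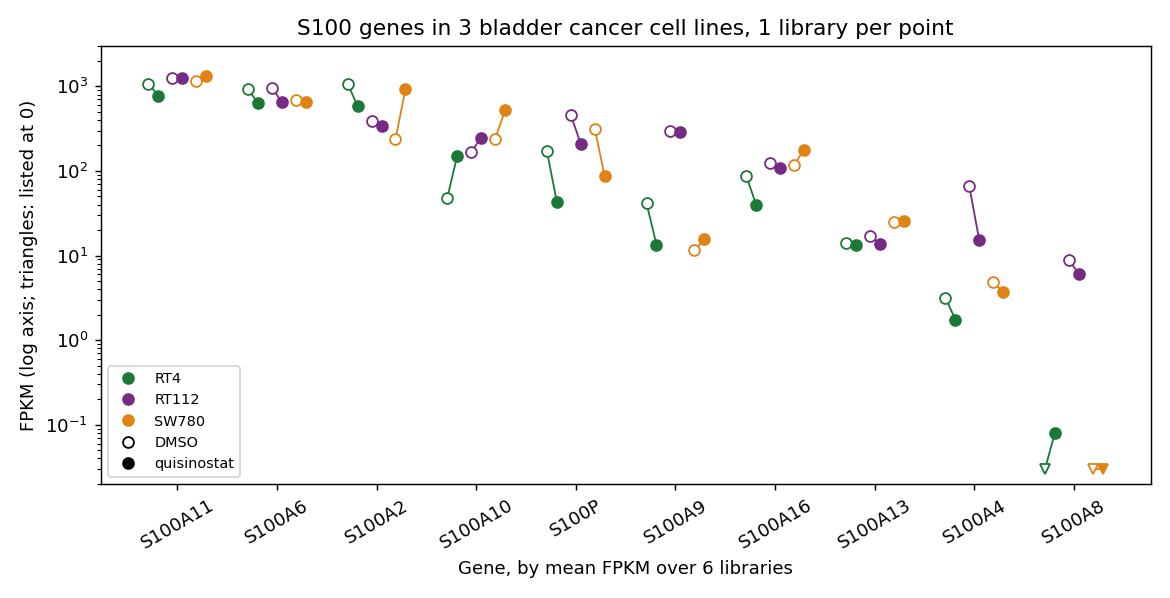
FPKM (log axis) of the 10 S100 genes, ordered by their mean, with 1 point per library. Open points are DMSO, filled points quisinostat, lines join the libraries of a cell line, and triangles mark values listed at 0. S100A11 and S100A6 stay near the top in all lines, while S100A9, S100A4 and S100A8 are highest in RT112 cells.

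S100A8 and S100A9 form calprotectin, a heterodimer best known from neutrophils and monocytes that inflamed epithelia also make. S100A9 was at 294 FPKM in DMSO and 289 in quisinostat in RT112 cells. It was at 41.5 and 13.4 in RT4 cells and at 11.6 and 15.5 in SW780 cells. Both RT112 libraries thus stood above the other 4. S100A8 was at 8.79 and 6.13 FPKM in RT112 cells, was listed at 0 in RT4 DMSO and in both SW780 libraries, and was at 0.081 in RT4 quisinostat. In every library S100A9 was the more abundant partner.

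S100A4, which binds non-muscle myosin and is linked to cell motility, had the same preference for RT112 cells. Its FPKM was 66.1 with DMSO and 15.2 with quisinostat in RT112, 3.18 and 1.75 in RT4, and 4.88 and 3.67 in SW780 cells. With DMSO it was 20.8-fold higher in RT112 than in RT4 cells and 13.5-fold higher than in SW780 cells. The lowest value in RT112 cells, with quisinostat, was still above every value of the other lines.

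Line differences were taken from limma on log2(FPKM + 1) with terms for line and treatment, on the 9430 loci averaging 1 FPKM or more, with Benjamini-Hochberg adjustment. A line has 2 libraries, 1 of each treatment, so the error includes any difference in response between lines. S100A8 averaged over 1 FPKM only through RT112 cells (8.79 and 6.13 FPKM, against 0.081 or less in every other library). Its contrasts below thus set RT112 against values at or near 0, and its calls give no support of their own. Between RT112 and RT4 cells, 4 of the 10 genes passed an adjusted p of 0.05, and 4.85% of all loci did. They were S100A9 (log2 difference 3.56, standard error 0.48, adjusted p = 0.0222), S100A8 (3.01, 0.42, adjusted p = 0.0238), S100A4 (3.28, 0.46, adjusted p = 0.0241) and S100P (1.83, 0.27, adjusted p = 0.0277), all higher in RT112 cells. Between RT112 and SW780 cells, 2 of 10 passed and 1.13% of all loci did, namely S100A9 (4.34, standard error 0.48, adjusted p = 0.0302) and S100A8 (3.06, 0.42, adjusted p = 0.0465), while S100A4 did not (2.65, 0.46, adjusted p = 0.0651). LUM, a gene of the fibroblast list picked after its values were seen, was also highest in RT112 cells. It was at 135 and 133 FPKM there, against 14.2 or less in the other lines. COL3A1, of the same list, was lowest in RT112 cells, at 0.09 and 0.33 FPKM against 1.125 or more in the other lines. COL1A1 was at 1.45 FPKM or less in every library. The part of these genes in the S100 line differences was not tested. In such bulk RNA, fewer cells that express a gene and less RNA per cell cannot be told apart.

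S100P, like S100A4, was highest in RT112 and lowest in RT4 cells with either treatment. Its difference between RT112 and SW780 cells (0.89, standard error 0.27, adjusted p = 0.159) and that between SW780 and RT4 cells (0.94, 0.27, adjusted p = 0.110) did not pass. S100A10 ordered the lines in another way. S100A10, the light chain that joins annexin A2 in a tetramer and lacks working calcium loops, was lowest in RT4 and highest in SW780 cells. With DMSO it was at 48.1, 167 and 240.4 FPKM in RT4, RT112 and SW780 cells, and with quisinostat at 152, 248 and 518. Between SW780 and RT4 cells it was the only 1 of the 10 genes to pass (log2 difference 2.03, standard error 0.30, adjusted p = 0.0298), where 5.10% of all loci did. RT112 cells did not differ from RT4 (1.24, 0.30, adjusted p = 0.0722) or from SW780 cells (-0.79, 0.30, adjusted p = 0.210) past the threshold. For S100A2, S100A6, S100A11, S100A13 and S100A16, none of the line contrasts passed, with adjusted p between 0.101 and 0.954.

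S100P was lower by more than 1 on the log2 scale in each line with quisinostat, which held for no other S100 gene. S100P, first found in placenta, binds ezrin and the receptor AGER and is abundant in several carcinomas. Its FPKM with DMSO and quisinostat was 172 and 42.8 in RT4, 458 and 209 in RT112, and 317 and 86.8 in SW780 cells. It was thus 4.02-fold, 2.2-fold and 3.65-fold lower with the drug, and the log2 ratios were -2.01, -1.14 and -1.87. Within each line this lay between percentiles 2.34 and 4.05 of all loci. Of 9112 loci with ratios in all lines, 26 (0.285%) were lower by more than 1 on the log2 scale in every line, and S100P was 1 of them. By the weakest of its ratios it stood at place 19 among 455 loci below -0.3 in all lines. EZR, the gene of its partner ezrin, had log2 ratios of -0.15, -0.29 and -0.15, the RT112 value being -0.34 after GC correction.

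**Figure D2:**
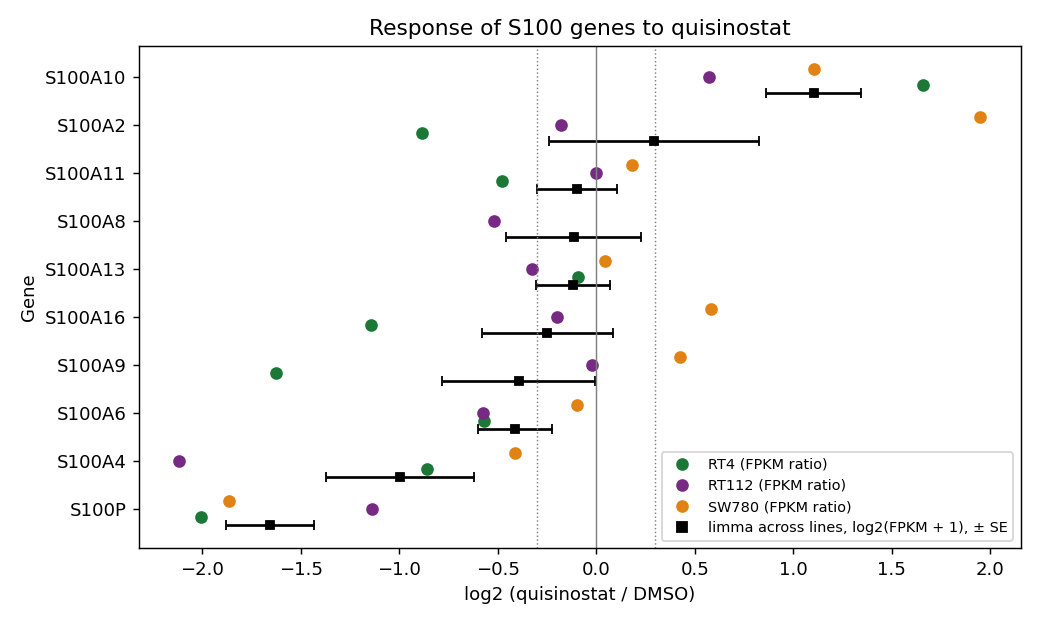
Log2 ratio of quisinostat over DMSO for each S100 gene in RT4, RT112 and SW780 cells (coloured points, 1 pair of libraries each), with the limma estimate across lines on log2(FPKM + 1) and its standard error (black squares). Dotted lines mark 0.3 on either side of 0, where S100P and S100A4 lie below in all lines and S100A10 above.

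S100A4 was lower in all lines as well, but unevenly. Its log2 ratio was -2.12 in RT112, -0.86 in RT4 and -0.41 in SW780 cells. The RT112 value lay at percentile 1.04 of that line's loci, the SW780 value at percentile 22.4. The line with the highest S100A4 level thus had the most negative S100A4 ratio, and the RT4 and SW780 values rest on FPKM below 5.

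S100A10 was the only 1 of the 10 genes to be higher with quisinostat in every line. It was 3.15-fold, 1.49-fold and 2.16-fold higher in RT4, RT112 and SW780 cells, with log2 ratios of 1.66, 0.57 and 1.11. After correction for GC content the RT112 ratio was 0.29, just under the limit of 0.3, and the others were 2.03 and 1.19. ANXA2, the gene of its partner annexin A2, had log2 ratios of 0.22, 0.30 and 0.32, which became -0.03, 0.37 and 0.23 after GC correction. The ratio of S100A10 lay at percentiles 90.0, 74.5 and 89.0 of all loci of RT4, RT112 and SW780 cells.

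S100A6, S100A11 and S100A13 had uncorrected ratios within 0.6 of 0 in every line. S100A6 was at 933 and 629 FPKM in RT4, 961 and 645 in RT112, and 691 and 647 in SW780 cells, with log2 ratios of -0.57, -0.58 and -0.10. After GC correction these ratios were 0.21, -1.16 and 0.12, so its values depend on that correction. For S100A11 the ratios were -0.48 (-0.26 after GC correction), 0.00 and 0.18, and its FPKM ranged from 775 to 1321. S100A13, which takes part in the release of fibroblast growth factor 1 and interleukin 1 alpha from cells, stayed between 13.2 and 25.5 FPKM, with ratios of -0.09, -0.33 and 0.05. S100A8 could be compared in RT112 cells alone, where its ratio was -0.52.

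S100A2, S100A9 and S100A16 differed in direction between RT4 and SW780 cells. S100A2, a gene of basal epithelial cells that p63 and p53 can activate, was at 1074 and 581 FPKM in RT4, 386 and 341 in RT112, and 238 and 921 in SW780 cells. Its log2 ratios were -0.89, -0.18 and 1.95, the last at percentile 94.8 of SW780 loci. The order of RT4 and SW780 cells was thus not the same with DMSO as with quisinostat. With DMSO S100A2 was 4.51-fold higher in RT4 than in SW780 cells, and with quisinostat it was 1.58-fold higher in SW780 than in RT4 cells. TP63, the gene of p63, had log2 ratios of -0.25, 0.28 and 1.22 in RT4, RT112 and SW780 cells, and -0.65, 0.43 and 1.10 after GC correction. It was picked, after its values were seen, from the 20 epithelial and urothelial markers. In SW780 cells 15 of these were lower past 0.3 and 4 higher, against 27.9% and 34.6% of all loci. Any part of TP63 in the S100A2 values was not tested. S100A9 had ratios of -1.63, -0.02 and 0.43, and S100A16, a widely expressed member, of -1.14, -0.20 and 0.58. In RT112 cells GC correction took S100A2 to -0.34 and S100A16 to -0.51. With 1 library per condition these differences between lines could not be tested.

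Across the lines limma with cell line as a block gave the following for quisinostat over DMSO. S100P had a log2 difference of -1.66 on the log2(FPKM + 1) scale (standard error 0.22, unadjusted p = 0.000407 in limma, adjusted p = 0.226) and was lower in 3 of 3 lines. S100A10 had 1.10 (standard error 0.24, adjusted p = 0.257) and was higher in 3 of 3 lines. S100A4 had -1.0 (standard error 0.38, adjusted p = 0.345) and S100A6 -0.41 (standard error 0.19, adjusted p = 0.392), both lower in 3 of 3 lines. After GC correction the S100A6 ratio was below 0 in RT112 cells alone (0.21, -1.16 and 0.12 in RT4, RT112 and SW780 cells). For the other 6 genes the standard error was larger than, or close to, the difference, with adjusted p between 0.653 and 0.900. None of the 10 genes passed an adjusted p of 0.05, and 0% of the 9430 loci did. At an unadjusted p under 0.05 in limma there were 3 of 10 (S100P, S100A10 and S100A4), and 13.8% of all loci. Without RT112 cells S100P had a difference of -1.92 with an adjusted p of 0.045, in a fit that called 18 lower and 48 higher loci. Without RT4 its adjusted p was 0.277, and without SW780 cells 0.317. A sign-flip test of 3 pairs cannot go below p = 0.25 (exact, two-sided).

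Counted at a limit of 0.3 on the log2 scale, the S100 genes as a group had no common direction over the lines. In RT4 cells 7 of 9 genes with a ratio were lower, against 33.4% of all loci, and 1 was higher (S100A10), against 41.1%. In RT112 cells 5 of 10 were lower, against 25.2%, and 1 was higher, against 36.9%. In SW780 cells 2 of 9 were lower, against 27.9%, and 4 were higher, against 34.6%. After GC correction the lower genes were 5 in RT4 and 7 in RT112 cells, so these counts depend on that correction. The shares of all loci after GC correction were not computed, so the corrected counts cannot be set beside them. The genes had median log2 ratios of -0.86, -0.26 and 0.18 in RT4, RT112 and SW780 cells, beside 0.10, 0.06 and 0.05 over all loci. In all lines together 2 of 9 were lower (S100A4 and S100P), against 4.99% of loci, and 1 of 9 was higher (S100A10), against 11.4%. At a limit of 1, RT4 cells had 3 lower genes (14.3% of loci) and 1 higher (19.2%), RT112 cells 2 lower (3.95%) and 0 higher (14.9%), and SW780 cells 1 lower (7.64%) and 2 higher (12.5%). The summed FPKM of the epithelial markers moved from 1941 to 1110 in RT4 and from 1968 to 1121 in SW780 cells. It moved from 1669 to 2602 in RT112 cells. The most abundant markers weigh most in this sum. Past 0.3, 14 of the 20 markers were lower and 4 higher in RT4, and 15 and 4 in SW780 cells (shares of all loci as above). In RT112 cells 3 of 19 with a ratio were lower and 10 higher, against 25.2% and 36.9% of all loci. EPCAM and CDH1 were picked from these markers after their values were seen. EPCAM had log2 ratios of 0.60, -0.39 and 0.32 in RT4, RT112 and SW780 cells (0.36, -0.33 and 0.23 after GC correction). CDH1 had 0.32, 0.28 and 0.32 (0.15, 0.299 and 0.23). The part of these markers in the S100 values was not tested.

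**Figure D3:**
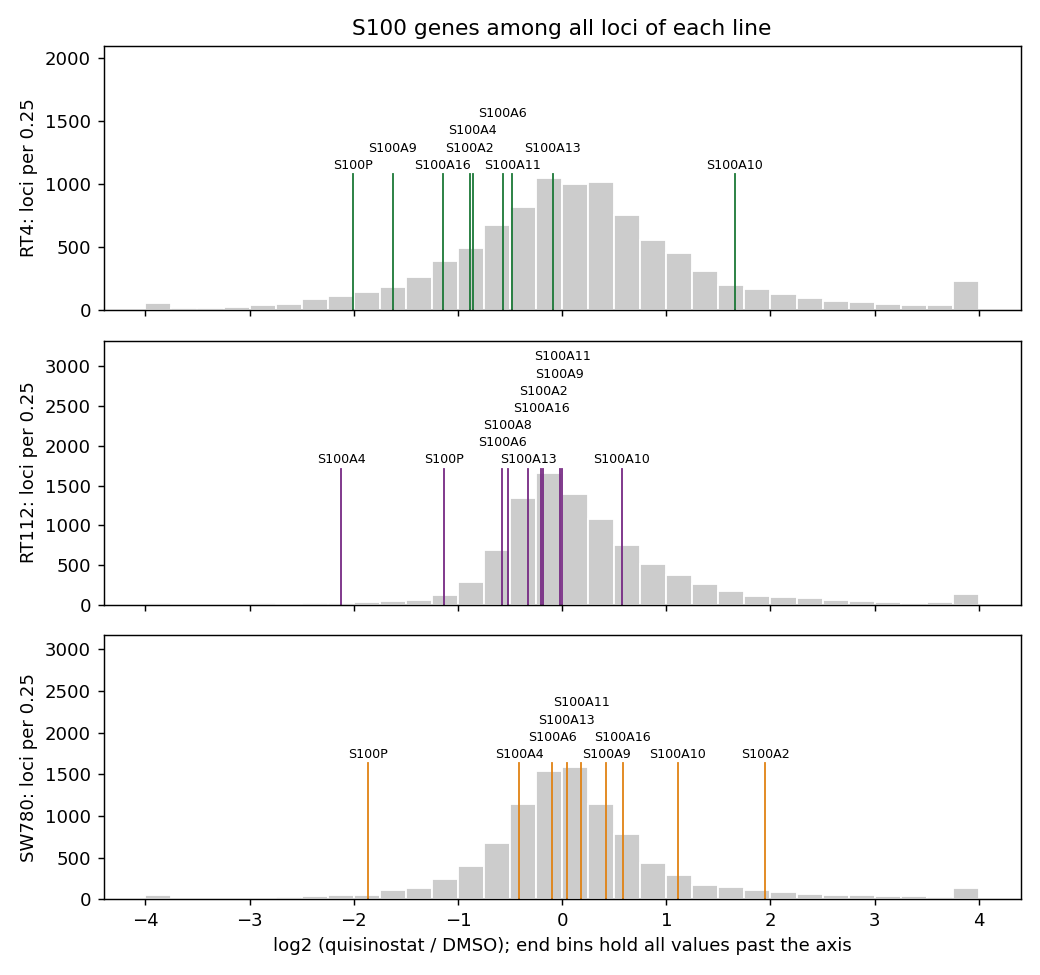
Histograms of the log2 ratio of quisinostat over DMSO over all loci with a ratio in each line (grey, loci per bin of 0.25 log2, with the end bins holding all values past the axis), with the S100 genes as coloured lines. Most S100 genes lie left of the centre in RT4 cells, S100A4 and S100P lie in the left tail in RT112 cells, and S100P and S100A2 lie in opposite tails in SW780 cells.

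Some neighbouring genes had ratios of opposite direction. S100A10 was 3.15-fold higher in RT4 cells while S100A11, whose low end lies 49.6 kb away, was 1.39-fold lower. S100A14, the other S100 gene named in the table, lies between S100A16 and S100A13, at 1631 kb. Its FPKM with DMSO and quisinostat was 34.8 and 151 in RT4, 353 and 274 in RT112, and 311 and 489 in SW780 cells. In RT4 cells its log2 ratio was 2.12, while that of S100A16, its neighbour, was -1.14. In SW780 cells S100A2 had a ratio of 1.95 and S100A4, its neighbour, -0.41.

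**Figure D4:**
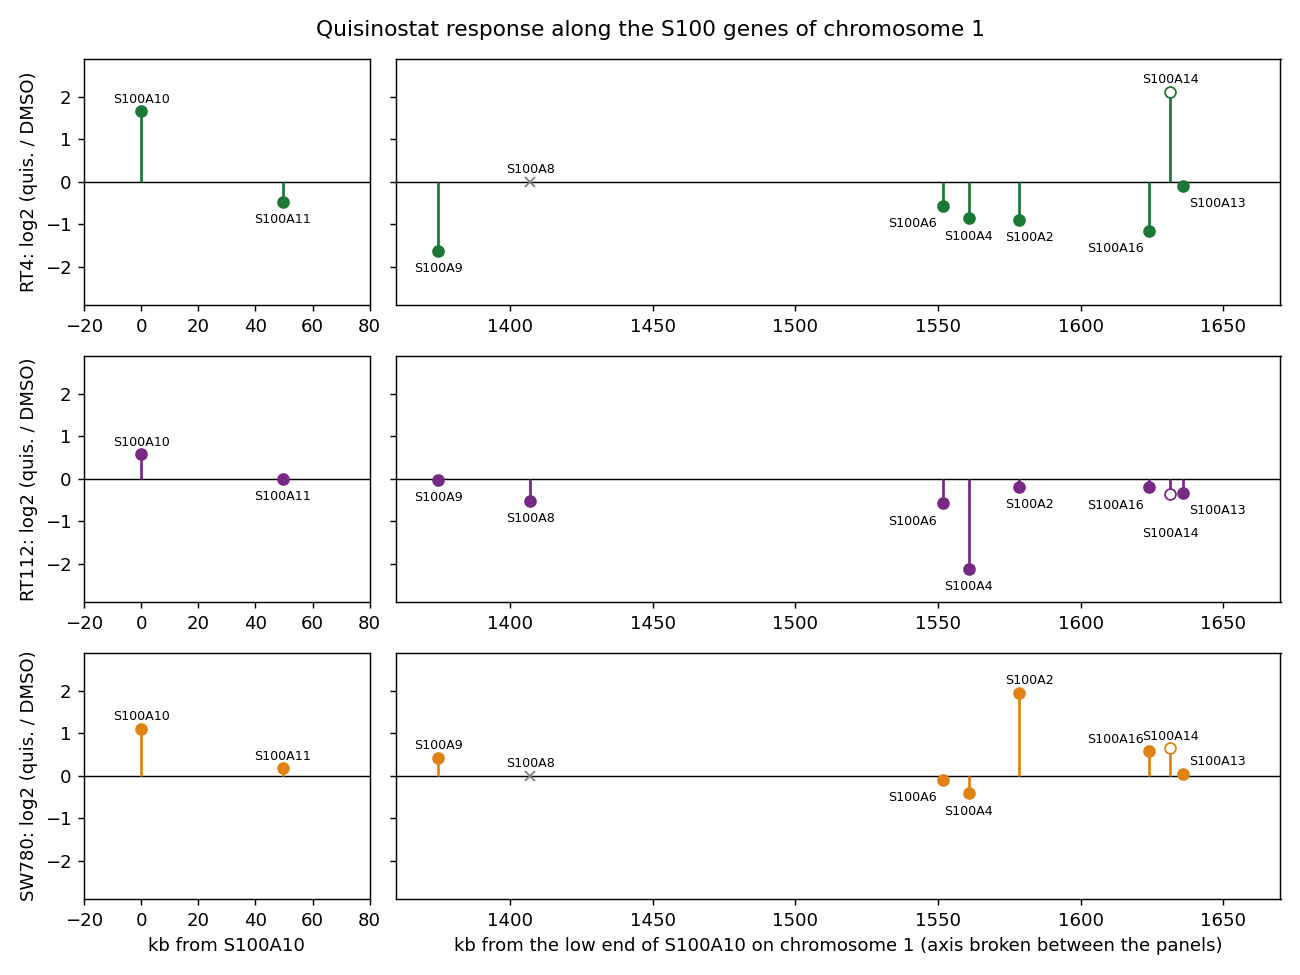
Log2 ratio of quisinostat over DMSO at the distance (kb) of each S100 gene from the low end of S100A10 on chromosome 1, per cell line, with the axis broken between the panels. The open point is S100A14 and crosses mark S100A8 where no ratio could be formed. Bars of neighbouring genes point in different directions in RT4 and SW780 cells.

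The wider calcium and S100 pathway was described by lists of genes. Of 25 annexins and other S100 partners 22 were in the table. In all 3 lines 3 of 21 with ratios were higher past 0.3 and none was lower, against 11.4% and 4.99% of all loci. In RT4 cells 11 of 22 partners were higher and 4 lower, against 41.1% and 33.4% of all loci. In RT112 cells 9 of 21 were higher and 5 lower, against 36.9% and 25.2%. In SW780 cells 6 of 22 were higher and 8 lower, against 34.6% and 27.9%. ANXA3 had ratios of 1.16, 3.53 and 0.56 in RT4, RT112 and SW780 cells, ANXA5 1.95, 0.49 and 1.06, and PLAUR, the urokinase receptor, 0.30, 6.90 and 1.57 at a mean of 0.753 FPKM. In limma none of 21 tested partners passed an adjusted p of 0.05, and 3 were higher at an unadjusted p under 0.05, where 913 of 9430 loci were. The counts in all 3 lines together and in limma are near those shares of all loci. Of the receptors of S100 proteins, TLR4 was at 1.94 to 5.16 FPKM, and AGER was not in the table. BSG, also on the partner list, was at 26.5 to 81.0 FPKM. Of 38 names of the epidermal differentiation complex, 7 were in the table, S100A8 to S100A11 among them. Of 6 with ratios in all lines 1 was higher past 0.3 (S100A10) and 1 lower (SPRR3), against 11.4% and 4.99% of all loci. The cornified envelope genes in the table did not move alike. SPRR3, a cornified envelope protein, was lower in every line, with ratios of -1.20, -1.23 and -1.89. SPRR1B had -0.40 (-0.299 after GC correction), 0.73 and 4.49, at a mean of 0.991 FPKM. IVL, which encodes involucrin, had -2.43, 0.48 and -0.67, the RT112 value being 0.01 after GC correction. Of 27 EF-hand genes outside the S100 family 20 were in the table. NUCB2 alone of 18 with ratios was higher past 0.3 in all lines, with 3.20, 0.35 and 1.11. That share was no larger than the 11.4% of all loci.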

How the data were processed

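RNA of RT4, RT112 and SW780 cells was sequenced after 2 days with quisinostat or DMSO, 1 library per line and treatment, grouped by sample title. For the SW780 quisinostat library, 1 label gives another cell line name; its other labels name SW780. The authors made stranded poly(A) libraries and sequenced them on a NovaSeq, then ran CASAVA 1.8.2, Trimmomatic 0.36, HISAT2 2.2.1, SAMtools 1.15.1, StringTie 2.2.1 (versions per the submitters' processing notes, GRCh38) and Ballgown. The deposited values are FPKM, so the depth of each library is unknown and no counting interval was computed. How rows were selected is not given in the sources used here.

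From these, 1 value per locus was kept. Log2 ratios of quisinostat over DMSO used no pseudocount and loci above 0 in both libraries of a line, with the limit of 0.3. limma 3.58.1 used log2(FPKM + 1), a variance trend and Benjamini-Hochberg adjustment on loci averaging 1 FPKM or more. It was first run on simulated data with less spread than these data, raised low levels and large planted changes. That run does not show its power here. Fold changes on the log2(FPKM + 1) scale understate the change of low genes, and p-values measure only the spread between these samples. The libraries are paired because each pair comes from 1 cell line. GC correction subtracted a lowess curve (span 0.3) on GC content of GENCODE 29 transcripts, known for 92.3% of loci. Named genes were the 10 members, at most 3 genes per list with 1 direction in all lines, S100A14, ANXA2, EZR, the HDAC inhibitor response genes, and the most alike gene of each member. LUM, COL3A1, TP63, TLR4, BSG, IVL, SPRR1B, EPCAM and CDH1 were named after their values were seen. The members and lists were chosen with earlier results of these data known.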

Additional observations from a re-analysis of the deposited data

Results flagged for a closer look

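In 3 of the S100 genes the ratio of quisinostat over DMSO lay past 0.3 on the log2 scale in opposite directions in RT4 and SW780 cells. For S100A2 it was -0.89 in RT4 and 1.95 in SW780 cells, for S100A9 -1.63 and 0.43, and for S100A16 -1.14 and 0.58. The difference was not tested, since each line has 1 library per treatment, and dose differs with the line. After GC correction the values were -0.68 and 1.98 for S100A2, -1.30 and 0.49 for S100A9, and -0.74 and 0.67 for S100A16.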

How the results depend on the processing

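Pseudocounts of 0.1 and 1, centring, rescaling to a common sum and filters on FPKM kept every ratio of the S100 genes on its side of 0.3, except that S100A8 gained a ratio in RT4 cells with a pseudocount of 0.1, which made 2 genes higher there, and that S100A8 was left out by a filter at 5 FPKM, which made 4 genes lower in RT112 cells. With GC correction S100A6 turned to 0.21 in RT4 cells, S100A2 and S100A16 passed -0.3 in RT112 cells, S100A11 in RT4 and S100A10 in RT112 cells no longer passed 0.3 in size, no gene was higher in RT112 cells (0) and none in all 3 lines (0). At a limit of 0.5, SW780 cells had 1 lower gene and all 3 lines together 1. At a limit of 1 the lower genes were 3 in RT4, 2 in RT112, 1 in SW780 and 1 in all 3 lines, and the higher genes 0 in RT112, 2 in SW780 and 0 in all 3 lines. Without 1 cell line, between 2 and 3 genes were lower in the remaining lines and 1 was higher. Fewer lines ease this criterion for every locus. Shares of all loci were not computed without a line or at the limit of 0.5, so these counts cannot be set beside them.

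In limma for quisinostat no setting other than leaving out a line called any locus: then between 0 and 18 loci were lower, between 1 and 48 higher, and between 0 and 1 of the S100 genes (S100P, without RT112 cells) was called. Without the replicate block, no locus was called (0). For the line contrasts, a fit with no term for treatment called 289 loci and 2 S100 genes between RT112 and RT4 cells (S100A4 at adjusted p = 0.058 and S100P at 0.284 were lost), 71 loci between RT112 and SW780 cells, and 298 loci and 0 S100 genes between SW780 and RT4 cells (S100A10 at 0.138). Between RT112 and SW780 cells, 62 loci were called with no filter, 177 with no trend and 167 after rescaling, and 1 S100 gene with a pseudocount of 0.1 or a filter at 5 FPKM. Some settings used fewer libraries or genes, and the cause of these shifts was not tested. The unknown depth limits what can be said of S100A8 and of S100A4 outside RT112 cells.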

Other observations

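Each S100 gene was set beside the named gene of most similar pattern over the 6 libraries, by Pearson's r of log2(FPKM + 1) among 3763 other single-name loci with a mean of at least 10 FPKM. With 6 points that share lines and treatments, high values are common, and they are given as a description. S100P was most like NUCKS1 (r = 0.995), which had 46.4 and 25.8 FPKM in RT4, 82.1 and 52.3 in RT112, and 69.0 and 36.0 in SW780 cells with DMSO and quisinostat. S100A10 was most like CAMSAP2 (r = 0.998), S100A4 like LSM2 (0.988), S100A9 like MT-CYB (0.994) and S100A8 like H19 (0.982). S100A11 was most like TOR1A (0.989), S100A13 like HDDC2 (0.996), S100A16 like BUB3 (0.972) and S100A6 like HNRNPC (0.965). S100A2 had no locus at 0.95 or above, and PPP1R10 came nearest (0.924).

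Among the 45 pairs of S100 genes, r over the 6 libraries ranged from -0.66 to 0.96 with a median of 0.22. The highest values were those of S100A11 with S100A16 (0.963), S100A8 with S100A9 (0.950) and S100A4 with S100A8 (0.927). S100A8 was at 0.081 FPKM or less outside RT112 cells. Its values of r thus mainly set the RT112 libraries against values at or near 0 and do not show that these genes vary together.

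Of the HDAC inhibitor response genes other than GSN, CDKN1A had log2 ratios of 0.12, 1.36 and 0.52 in RT4, RT112 and SW780 cells, H1F0 1.08, 0.45 and -0.04, CLU 0.09, 2.62 and -0.32, and TUBB3, which shares its locus with another name, -1.90, 0.54 and -0.61. After GC correction CDKN1A had 0.67 in RT4 and TUBB3 0.04 in RT112 cells.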
